A study of Mus musculus with 2 samples.

Results

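The sodium, chloride, bicarbonate and phosphate transporters described here are the genes of the solute carrier families Slc4, Slc8, Slc9, Slc12, Slc20, Slc24, Slc26 and Slc34 and of the sodium-potassium pump (Atp1). They were picked out by gene symbol, with earlier results of these data known, and 54 of the 22756 gene rows carried such a symbol. By family these were 10 Slc4, 3 Slc8, 9 Slc9, 9 Slc12, 2 Slc20, 4 Slc24, 8 Slc26 and 3 Slc34 genes, with 6 pump genes. Footprints, the mRNA pieces that ribosomes protect from nuclease, were sequenced from the ileum. The mice were C57BL/6, wild type, and 21 days old (postnatal day 21), and carried no other allele or agent by their labels. One group was fed and the other was fasted for 48 h, and each gave 1 library. The number of mice behind a library is not stated by the labels. No replicate check exists for any difference below, so each is a difference between these 2 libraries, with an interval that covers counting error only. A footprint count depends, among other things, on how much mRNA is present and on how often it is translated. In whole tissue fewer cells of a type and less RNA per cell cannot be told apart.

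Enterocytes absorb salt by pairing an apical sodium/proton exchanger with an apical chloride/bicarbonate exchanger, while the basolateral sodium-potassium pump keeps cell sodium low. Crypt cells secrete fluid by loading chloride through a basolateral sodium-potassium-chloride cotransporter and releasing it through the apical channel Cftr. Phosphate enters from the lumen through a sodium-coupled carrier, and basolateral bicarbonate carriers set cell pH.

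Gene counts summed to 5558620 in the fed library and 5434252 in the fasted one. Counts were scaled with TMM, which sets the typical gene's ratio near 1, and are given as CPM, counts relative to the scaled library size. A gene was taken as measured if its counts in both libraries summed to at least 30. It was called higher or lower when the fasted/fed ratio of scaled counts reached 1.5-fold with a 95% exact interval excluding 1. Plain CPM, which divides by the library total alone, lowered every log2 ratio by 0.32. The ileal markers Fabp6, Slc10a2, Fgf15 and Cubn had between 810 and 40302 counts in each library. These genes were listed after the counts had been read, so they are no test of the tissue label.

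Of the 54 transporter genes 34 were measured, 17 had between 1 and 29 counts in sum and 3 had none. Among the measured genes 6 were higher in the fasted library, 7 were lower and 21 were neither. Of all 11333 measured genes in the data 17.3% were higher and 17.3% lower, so the families were called at about the rate of genes in general. Plain CPM gave 2 higher, 10 lower and 22 uncalled genes, beside a background of 8.86% higher and 31.2% lower. The median log2 ratio of the measured transporters was 0.18, against 0.0028 over all measured genes, and -0.15 against -0.32 with plain CPM. The 3 highest by the interval bound nearest to 1 were Slc26a3, Slc34a3 and Slc26a2, and the 3 lowest were Slc24a3, Slc9a3 and Slc9a2. All 7 lower genes were lower with plain CPM too, while of the 6 higher genes Slc26a3 and Slc34a3 alone still reached 1.5-fold. Slc34a3 had exactly the minimum of 30 counts, 24 of them in the fasted library where it was high, so it passed the minimum mainly through that library.

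**Figure D1:**
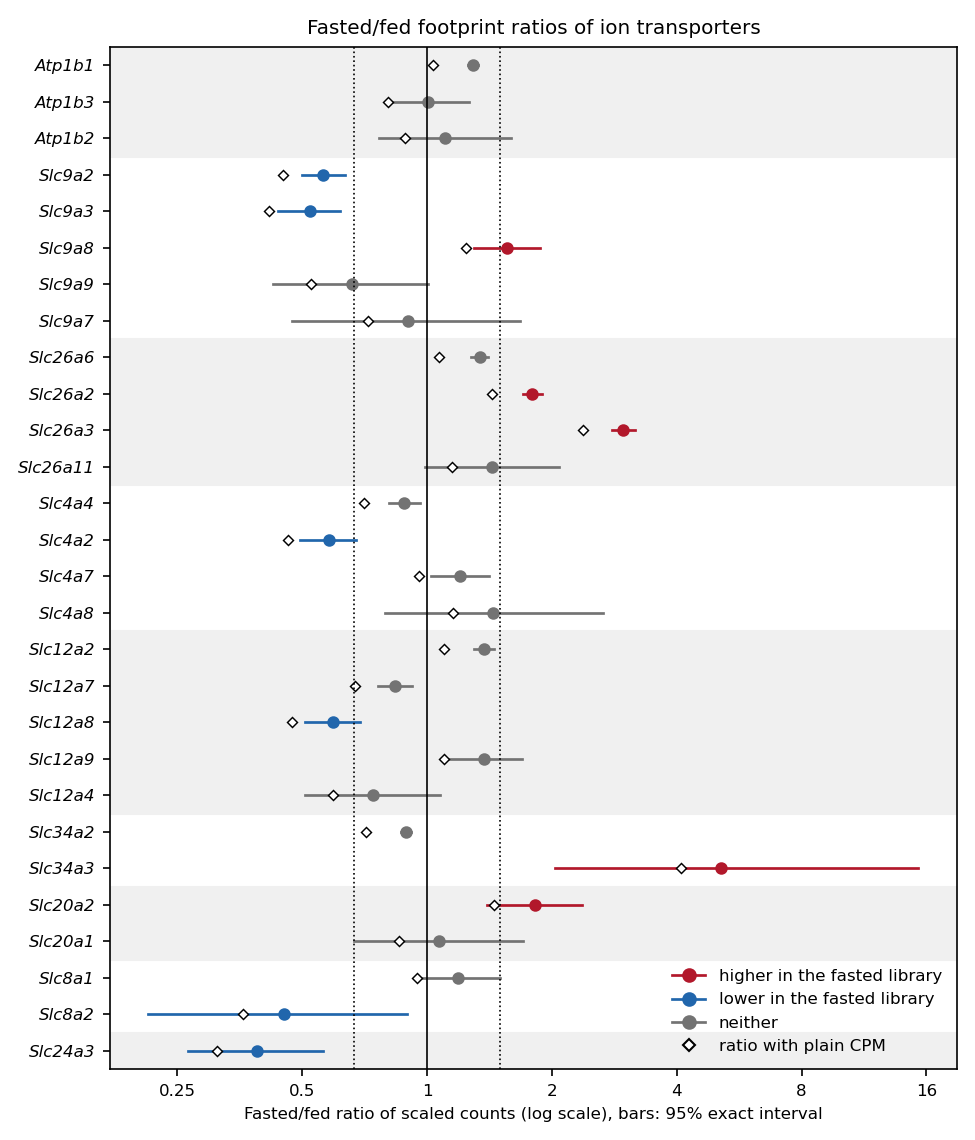
Fasted/fed ratio of scaled counts (log axis) for 28 of the 34 measured transporter genes, ordered by family, 1 fed against 1 fasted library. Circles are TMM-scaled ratios with 95% exact counting intervals, diamonds the same ratios with plain CPM, and dotted lines mark 1.5-fold either way. Slc26a3 (2.97-fold) and Slc34a3 (5.12-fold, from 30 counts) lie to the right of the line on both scales. Slc9a2, Slc9a3, Slc4a2, Slc12a8, Slc24a3 and Slc8a2 lie to the left on both, as does Slc9a9, whose TMM interval includes 1.

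Levels can be compared between genes only per length, so scaled CPM were divided by the kilobases of the longest annotated coding sequence. On this scale Atp1b1 led with 1850 CPM per kb in the fed library and 2390 in the fasted one. Slc34a2 stood lower with 944 and 841, and Slc26a6 lower still with 267 and 358. The exact Poisson intervals of these 3 genes did not overlap in either library. Slc26a3 stood in rank 7 of the fed library at 97.7 CPM per kb, where its interval overlapped that of Slc12a2 (102), and in rank 6 of the fasted library at 291, where it overlapped that of Slc26a2 (293). Further down neighbours were mostly not separated: of 33 neighbouring pairs in each library 24 had overlapping intervals. The lowest measured genes were Slc34a3 in the fed (0.535) and Slc8a2 in the fasted library (0.894).

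**Figure D2:**
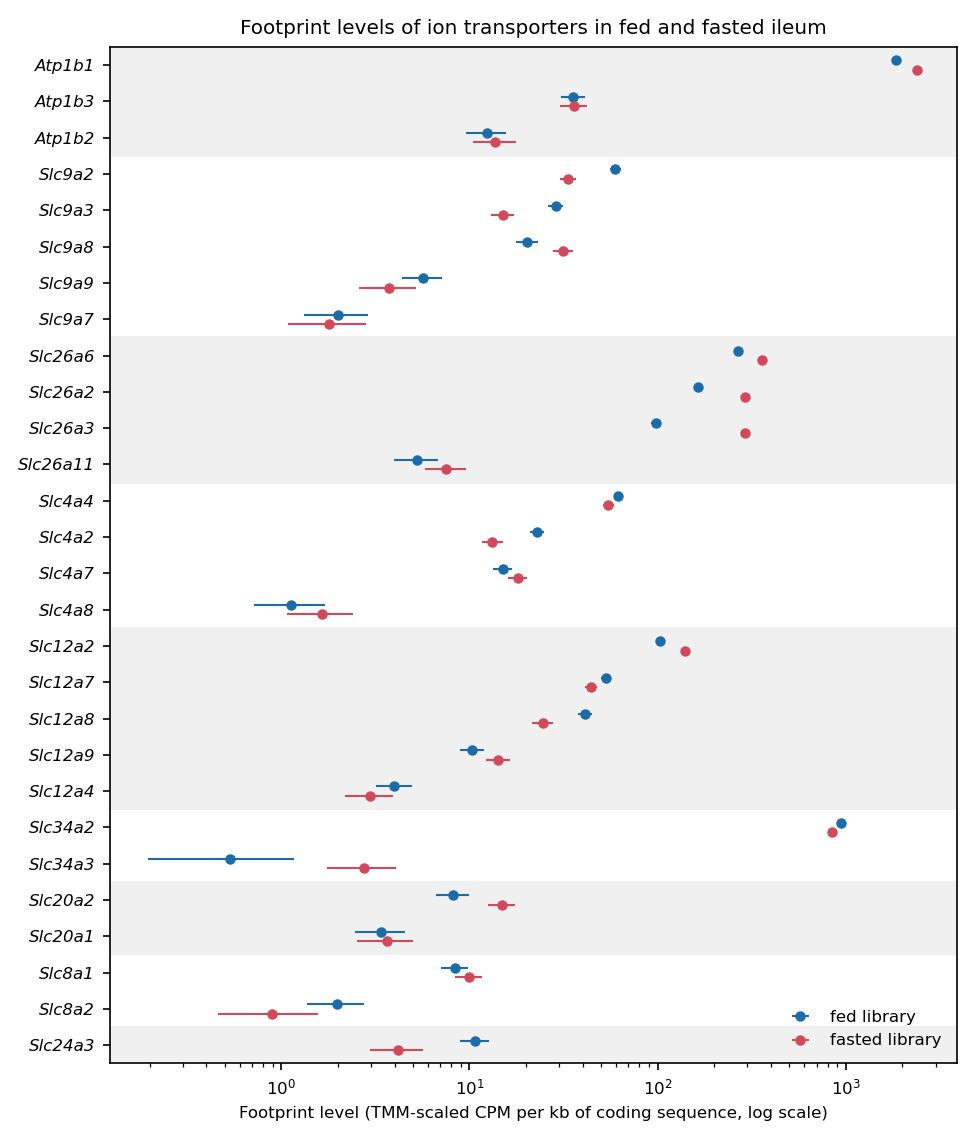
Footprint level of 28 of the 34 measured transporter genes in the fed (blue) and fasted (red) library, as TMM-scaled CPM per kb of coding sequence on a log axis, with 95% exact Poisson intervals of each count. Atp1b1 and Slc34a2 stand above the others shown in both libraries, and the levels span more than 3 powers of 10.

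The sodium-potassium pump supplies the gradient that the other carriers use. Atp1b1 (ENSMUSG00000026576, chromosome 1, 164437109 to 164458355, minus strand, mm10), the beta subunit that brings the pump to the membrane, had 10487 and 10592 footprints, or 1687 and 2180 scaled CPM. The ratio of 1.29 (1.26 to 1.33) stayed under 1.5-fold, and it was 1.03 with plain CPM. The other beta subunits were far less abundant. Atp1b3 had 184 and 145 footprints (ratio 1.01, 0.805 to 1.26) and Atp1b2, known from glia, 67 and 58 (1.11, 0.766 to 1.598). Of the footprints on the 3 beta genes Atp1b1 took 97.7% in the fed library and 98.1% in the fasted one.

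Among the sodium/proton exchangers of the Slc9 family the apical pair was lower in the fasted library, and another apical exchanger was higher. Slc9a3 (ENSMUSG00000036123, chromosome 13, 74121457 to 74169442, plus strand), which carries most sodium/proton exchange at the brush border, had 464 fed and 189 fasted footprints, or 74.6 and 38.9 scaled CPM. This was a 1.92-fold lower level (interval 1.62 to 2.28). Slc9a2 (ENSMUSG00000026062, chromosome 1, 40680574 to 40769273, plus strand), the second brush border exchanger, had 906 and 398 footprints and was 1.78-fold lower (1.58 to 2.01). The ratio of Slc9a2 to Slc9a3 counts was 1.95 (fed) and 2.11 (fasted), and the interval of its change included 1 (1.08-fold, 0.874 to 1.33). Slc9a8 (ENSMUSG00000039463), an exchanger of the Golgi and of the brush border in young rodents, had 217 and 264 footprints and was 1.56-fold higher in the fasted library (1.296 to 1.87; 1.24-fold with plain CPM). Relative to Slc9a3 the Slc9a8 count was 2.99-fold higher (2.32 to 3.85) in the fasted library, whatever the scaling.

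Slc9a7 and Slc9a9, exchangers of inner membranes, were neither higher nor lower with TMM. Slc9a7 of the trans-Golgi network had 27 and 19 footprints (ratio 0.900, 0.473 to 1.68), and the endosomal Slc9a9 had 68 and 35 (0.659, 0.425 to 1.004). Plain CPM and upper-quartile factors counted Slc9a9 as lower. Together Slc9a2 and Slc9a3 made up 1370 of 2160 Slc9 footprints in the fed library and 587 of 1335 in the fasted one. The Slc9a3 share went from 21.5% (19.8% to 23.3%) to 14.2% (12.3% to 16.1%) and the Slc9a8 share from 10.0% (8.81% to 11.4%) to 19.8% (17.7% to 22.01%).

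Of the 4 measured anion carriers of the Slc26 family 2 were higher in the fasted library, 2 were neither and none was lower. Slc26a3 (ENSMUSG00000001225, chromosome 12, 31390871 to 31473917, plus strand) is the chloride/bicarbonate exchanger whose loss causes congenital chloride diarrhoea in humans. It had 1380 footprints in the fed library and 3206 in the fasted one, 222 scaled CPM (210 to 234) against 660 (637 to 683). The level was 2.97-fold higher in the fasted library (interval 2.79 to 3.17) and 2.38-fold with plain CPM. Slc26a2, a sulfate carrier, had 2250 and 3156 footprints and was 1.79-fold higher (1.70 to 1.895), although only 1.43-fold with plain CPM. Slc26a6, which exchanges chloride for bicarbonate and oxalate, had 3662 and 3831 (ratio 1.34, 1.28 to 1.40), and Slc26a11 had 58 and 65 (1.43, 0.991 to 2.08). Within the family the share of Slc26a3 footprints went from 18.8% (17.9% to 19.7%) to 31.2% (30.3% to 32.1%), that of Slc26a6 from 49.8% to 37.3%, and that of Slc26a2 from 30.6% to 30.7%.

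**Figure D3:**
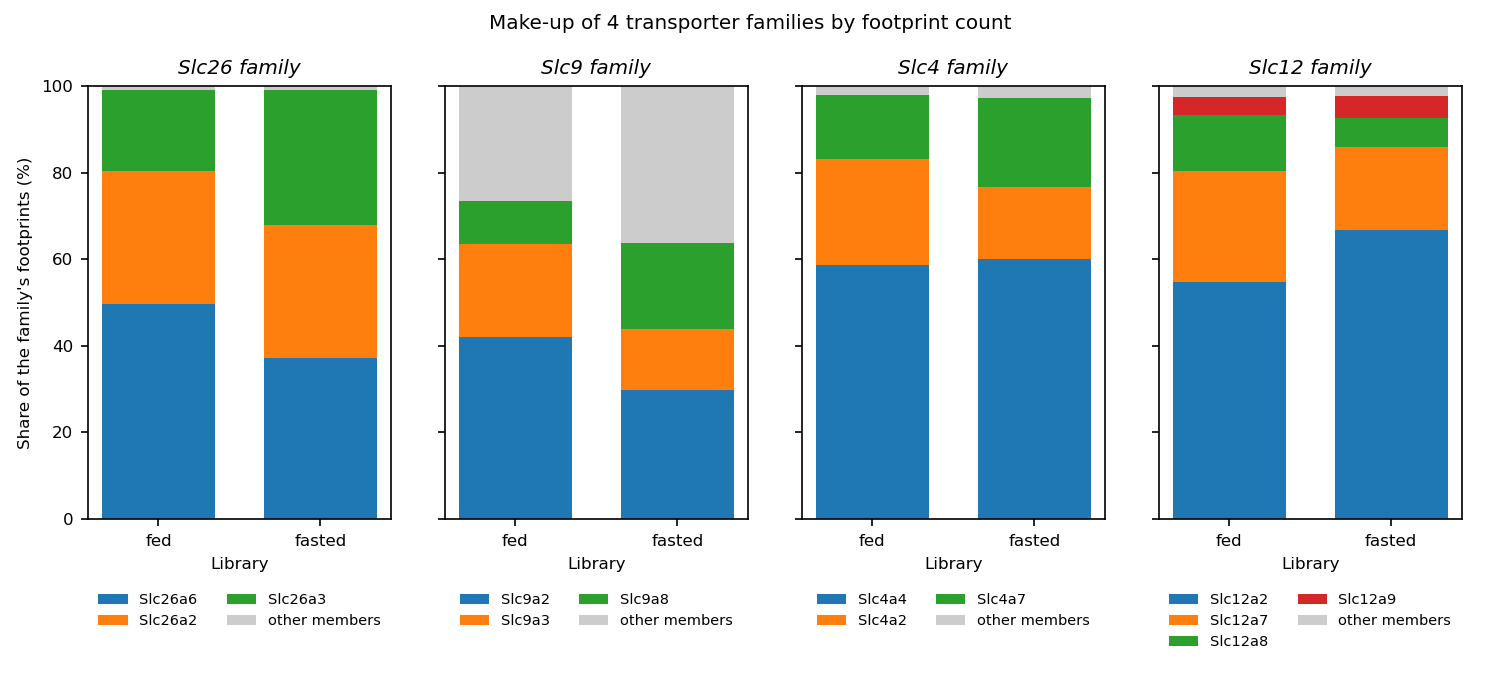
Share of the footprints of 4 transporter families (percent of the family's count, so genes with longer coding sequence weigh more) held by each gene in the fed and fasted library, with the remaining genes pooled as other members. Slc26a3 went from 18.8% to 31.2% of Slc26 footprints, and Slc9a2 from 41.9% to 29.8% of Slc9 footprints.

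Slc26a3 was higher in the fasted library, while the sodium/proton exchangers Slc9a3 and Slc9a2 were lower. Slc26a6 was neither and Slc9a8 was higher, so the contrast below holds for the named genes and not for each class. The fed library held 2.97 Slc26a3 footprints for each Slc9a3 footprint and the fasted library 17.0. This change, which needs no scaling between the libraries, was 5.70-fold (interval 4.75 to 6.87), and that of Slc26a3 to Slc9a2 was 5.29-fold (4.62 to 6.06). Set against its own relative Slc26a6, Slc26a3 was 2.22-fold higher in the fasted library (2.05 to 2.40).

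The bases just before the RefSeq start of Slc26a3 and of Slc9a3 (GRCm38.p6) are shown because these 2 genes had the most opposed footprints of the apical exchangers. The RefSeq start of Slc26a3 lies inside the GENCODE gene span given above, which begins further upstream, so the window is that of a start within the gene. Motifs were searched on both strands, and capitals mark those found. They were the GC box GGGCGG, the TATA box TATAAA, the CDX2 motif TTTATNG, the HNF4A motif CAAAGTCCA, the GATA motif AGATAA and the glucocorticoid receptor's palindrome.
Slc26a3, chr12:31437969-31438218, plus strand: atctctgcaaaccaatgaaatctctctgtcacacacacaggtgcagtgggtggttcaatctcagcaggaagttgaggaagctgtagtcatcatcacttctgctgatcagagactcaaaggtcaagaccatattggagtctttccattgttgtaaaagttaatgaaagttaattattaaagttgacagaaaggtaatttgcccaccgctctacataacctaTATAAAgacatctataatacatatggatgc
Slc9a3, chr13:74121163-74121412, plus strand: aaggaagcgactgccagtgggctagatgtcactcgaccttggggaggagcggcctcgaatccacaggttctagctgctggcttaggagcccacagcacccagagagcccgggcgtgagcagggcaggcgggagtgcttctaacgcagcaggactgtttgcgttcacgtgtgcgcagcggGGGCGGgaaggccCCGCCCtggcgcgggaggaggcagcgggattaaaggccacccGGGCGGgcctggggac
The windows differ in kind. That of Slc26a3 has a TATA box from -30 to -25, counted from the base before the start as -1, a G and C content of 38.8% and 1 CG dinucleotide. That of Slc9a3 has 3 GC boxes, 1 of them on the opposite strand, a G and C content of 67.6% and 19 CG dinucleotides. Of all 32851 RefSeq windows of this length, 12.4% hold the TATA box letters, 32.7% the GC box, 9.81% the CDX2, 9.99% the GATA, 0.384% the HNF4A and 0.387% the glucocorticoid receptor letters, and the TATA and CDX2 letters can overlap. In the 50 windows of 38 transporter genes the counts were 9 for the TATA box, 20 for the GC box, 5 for CDX2, 9 for GATA and 0 for the other two.

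Among the bicarbonate carriers of the Slc4 family Slc4a2 was lower in the fasted library. Slc4a2 (ENSMUSG00000028962, chromosome 5, 24423837 to 24440950, plus strand), the basolateral chloride/bicarbonate exchanger, had 528 and 239 footprints and was 1.73-fold lower (interval 1.48 to 2.02). Its coding exons overlap exons of Fastk on the opposite strand, and 83.9% of its coding 28-base words are absent from the transcripts of other genes. Slc4a4, the sodium bicarbonate cotransporter of the basolateral membrane, had 1264 and 871 footprints (ratio 0.882, 0.808 to 0.962) and did not reach 1.5-fold. Slc4a7, a sodium bicarbonate cotransporter, had 317 and 297 (1.20, 1.02 to 1.41), and Slc4a8, a sodium-driven chloride/bicarbonate exchanger, 23 and 26 (1.45, 0.793 to 2.65). The count ratio of Slc4a4 to Slc4a2 was 1.52-fold larger in the fasted library (1.27 to 1.82).

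The cation-chloride cotransporters of the Slc12 family held 1 lower gene. Slc12a8 (ENSMUSG00000035506, chromosome 16, 33517328 to 33664135, plus strand), for which transport of nicotinamide mononucleotide has been reported and disputed, had 544 and 252 footprints and was 1.69-fold lower (interval 1.45 to 1.97). Slc12a2 (chromosome 18, 57878678 to 57946821), the basolateral sodium-potassium-chloride cotransporter that loads chloride for secretion, had 2304 and 2473 footprints (ratio 1.37, 1.297 to 1.45). The potassium-chloride cotransporters Slc12a7 (1073 and 702 footprints, ratio 0.837) and Slc12a4 (81 and 47, 0.742) were neither, as was Slc12a9 (176 and 189, 1.37). Slc12a4 was lower with plain CPM (0.594). Slc12a2 made up 54.8% of the family's footprints in the fed library (53.2% to 56.3%) and 66.8% in the fasted library (65.3% to 68.4%), and Slc12a8 12.9% and 6.81%.

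Phosphate carriers were led by Slc34a2 (ENSMUSG00000029188, chromosome 5, 53038081 to 53071664, plus strand), the apical sodium-phosphate cotransporter of the intestine. It had 12270 footprints in the fed library and 8546 in the fasted one, 1974 and 1759 scaled CPM. The ratio of 0.891 (0.867 to 0.916) excluded 1 by counting error and fell short of 1.5-fold, also with plain CPM (0.712). Slc34a3, known from the kidney, reached exactly the minimum of 30 counts with 6 and 24 footprints, a 5.12-fold higher level in the fasted library with a wide interval (2.04 to 15.3). Slc34a1, the other renal carrier, had 3 and 0. Slc20a2 (chromosome 8, 22476788 to 22569612), a broadly expressed phosphate carrier, had 100 and 142 footprints and was 1.82-fold higher in the fasted library (1.40 to 2.37; 1.45-fold with plain CPM), while its relative Slc20a1 had 43 and 36 (1.07, 0.668 to 1.71). The Slc20a2 count for each Slc34a2 count was 2.04-fold higher in the fasted library (1.56 to 2.66), yet Slc20a2 stayed far below Slc34a2 per length, at 8.17 and 14.8 CPM per kb against 944 and 841.

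Sodium/calcium exchangers of the Slc8 and Slc24 families are known from muscle and nerve. Slc24a3 (ENSMUSG00000063873, chromosome 2, 145167754 to 145642166, plus strand), a potassium-dependent exchanger, had 128 and 39 footprints and was 2.57-fold lower in the fasted library (interval 1.78 to 3.77). Slc8a2, the exchanger of neurons, had 34 and 12 and was 2.21-fold lower (1.12 to 4.70), a result that a stricter interval did not keep. Slc8a1, the exchanger of heart and smooth muscle, had 151 and 140 (ratio 1.19, lower bound 0.936).

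Transporters of other organs were at or near 0. The renal Slc12a1, the testis anion carrier Slc26a8 and the red cell anion exchanger Slc4a1 had no footprint in either library. A one-sided 95% limit behind such a 0 is 3 counts, or 0.483 scaled CPM (fed) and 0.617 (fasted), which is tighter than the upper bound of the two-sided intervals used for levels. Slc12a3, the thiazide-sensitive cotransporter of the kidney, and the sulfate carrier Slc26a1 each had 0 in the fed library and 8 in the fasted one. Slc26a4 (pendrin) had 7 and 15, Slc9a4 6 and 5, Slc9a5 5 and 0, Slc4a3 7 and 3, Slc4a5 5 and 6, Slc4a10 5 and 4, and Slc4a11 6 and 1. The remaining 7 (Slc4a9, Slc8a3, Slc12a5, Slc24a2, Slc24a4, Slc24a5 and Slc26a10) had at most 6 counts in sum.

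Of 4 pairs of these genes that lie close together on a chromosome, 1 had almost no reads: Slc24a5 and Slc12a1 on chromosome 2 had 2 and 0 counts in sum. Slc9a4 and Slc9a2 lie 49.8 kb apart on chromosome 1 with no coding gene between them, yet Slc9a4 had 11 counts in sum and Slc9a2 1304. Slc26a3 and Slc26a4, 45.9 kb apart on chromosome 12 on opposite strands, had 4586 and 22. Slc12a7 and Slc9a3, 305 kb apart on chromosome 13 with 6 coding genes between them, had ratios of 0.837 and 0.521.

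The bases around the start codon are shown for 9 higher or lower genes, since initiation on these bases is the step that loads a ribosome. They come from the longest coding transcript in GENCODE vM21, and capitals mark the ATG.
Slc26a3, higher: agggaaggcaaaATGatcgaagccata
Slc9a8, higher: ataggggagaagATGgcggaggaggag
Slc20a2, higher: ccattttccaaaATGgccatggacggg
Slc34a3, higher: ttcttgaaatccATGccgaattccctc
Slc9a2, lower: gctgccgaccccATGggcccccggggc
Slc4a2, lower: taagatttggccATGagcagcgccccc
Slc12a8, lower: acttcctggagaATGgcccagaggtct
Slc24a3, lower: ggctgtccgaggATGccgccgccgggc
Slc8a2, lower: tcaccacccccaATGgctcccttggct
A purine 3 bases before the ATG together with a G just after it, the context favoured by vertebrate ribosomes, was present in 3 of 5 higher, 2 of 6 lower and 12 of 18 other measured transporters with such a sequence. Over all 10556 measured genes with one it was present in 45.8%. With so few genes these counts are a description only.

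Genes that gate, anchor or regulate these carriers were taken from a list of 64, of which 62 were in the files and 47 measured. In the fasted library 16 were higher, 7 lower and 24 neither, against 17.3% and 17.3% of all measured genes. With plain CPM 10 were higher and 12 lower, against 8.86% and 31.2% of all measured genes. With plain CPM 2 scaffolds were higher and 2 lower, 4 kinase group genes were higher and 1 lower, and 0 channels were higher and 4 lower.

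Of 9 measured scaffolds and binding partners 4 were higher and 1 lower. Ezr (ezrin), which ties brush border proteins to actin, had 8772 and 20692 footprints and was 3.02-fold higher (interval 2.94 to 3.09). Slc9a3r1 (NHERF1), the PDZ scaffold that holds Slc9a3 at the brush border, had 3778 and 6117 and was 2.07-fold higher (1.99 to 2.16), in the same library in which Slc9a3 was lower. Pdzk1, a related scaffold, was 1.55-fold higher and Ahcyl1 (IRBIT), a regulator of bicarbonate carriers, 1.58-fold, but with plain CPM these 2 reached only 1.24-fold and 1.26-fold. Shank2, another PDZ partner of Slc9a3, had 53 and 10 footprints and was 4.14-fold lower (2.09 to 9.13). It passed the count minimum mainly through the fed library, where it was high. Chp2 (950 and 754), Pdzd3 (300 and 166) and Chp1 (281 and 249) were neither.

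Of 14 measured kinases, ligases and steroid pathway genes 7 were higher and 1 lower. Sgk1, the glucocorticoid-induced kinase that raises sodium transport, had 2580 and 14172 footprints and was 7.03-fold higher (interval 6.74 to 7.33). Its relatives Sgk2 (1.67-fold) and Sgk3 (1.76-fold) and the cGMP kinase Prkg2 (1.83-fold), which inhibits Slc9a3, were higher with TMM and under 1.5-fold with plain CPM. The chloride-sensing kinases Wnk1 (1.89-fold), Wnk2 (1.88-fold) and Wnk4 (2.87-fold, 37 and 83 footprints) were higher with both scalings. Stk39 (SPAK), the kinase through which Wnk kinases act on Slc12 cotransporters, had 111 and 50 footprints and was 1.74-fold lower (1.23 to 2.47). Cab39 (830 and 703), Nedd4l (619 and 497) and Cul3 (528 and 444) were neither.

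Of 8 measured channels none was higher and 3 were lower. Cftr had 1286 and 658 footprints and was 1.53-fold lower (interval 1.39 to 1.68). The potassium channel subunit Kcne3 (111 and 44, 1.97-fold) and the calcium-activated channel Kcnn4 (327 and 138, 1.85-fold), both of which support chloride secretion, were lower too. The channel Kcnq1, with which Kcne3 assembles, had 514 and 370 (ratio 0.921), Clcn2 858 and 620 (0.924) and Ano1 218 and 119 (0.698).

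Carbonic anhydrases, which make bicarbonate, went both ways, with 3 of 9 higher and 2 lower. The cytosolic Car13 had 446 and 665 footprints (1.91-fold higher) and Car14 had 11 and 42 (4.88-fold, interval 2.47 to 10.5). Car14 passed the count minimum mainly through the fasted library, where it was high. The mitochondrial Car5b had 32 and 42 (1.68-fold higher, under 1.5-fold with plain CPM). Car3, known from muscle and fat, had 339 and 22 and was 12.04-fold lower (interval 7.83 to 19.5), and the membrane-bound Car12 was 2.25-fold lower. Car4 (784 and 876), Car9 (174 and 106) and Car8 (79 and 46) were neither. Of the pump regulators Fxyd6 was higher (25 and 42, 2.15-fold, interval 1.28 to 3.68), although its fed count alone lay below the count minimum. Fxyd3 (104 and 111), Fxyd5 (104 and 72) and Fxyd1 (63 and 65) were neither. Slc8b1, the mitochondrial sodium/calcium exchanger, had 42 and 84 footprints and was 2.56-fold higher (1.75 to 3.80). Slc17a4 (322 and 190) and the phosphate exporter Xpr1 (271 and 278) were neither.

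**Figure D4:**
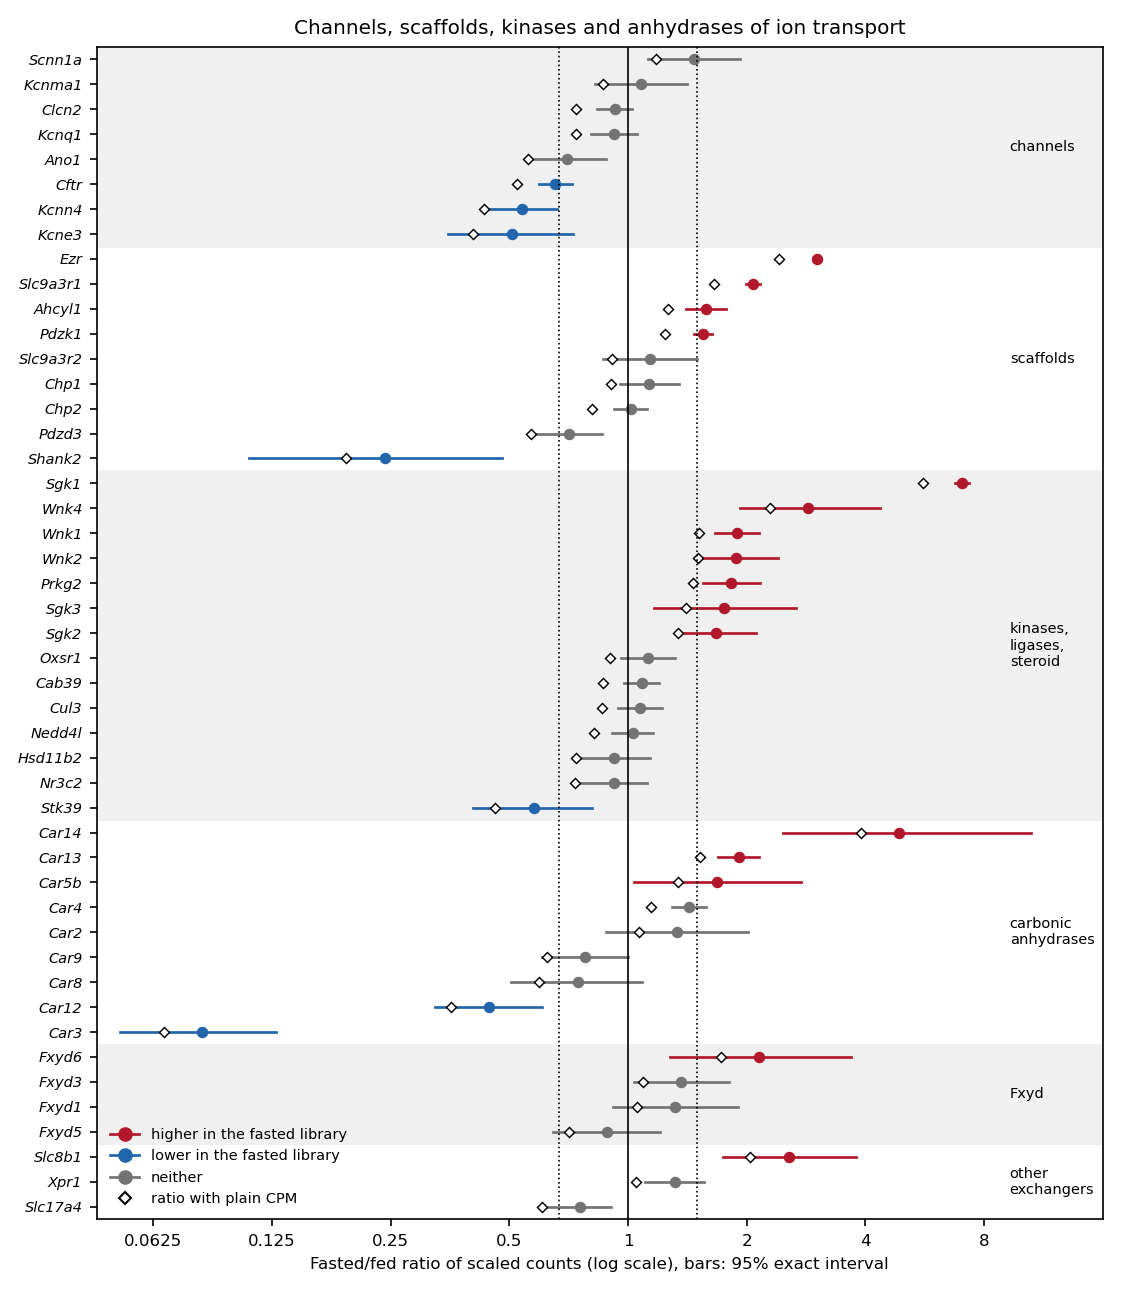
Fasted/fed ratio of scaled counts (log axis) for the 47 measured channels, scaffolds, kinases, carbonic anhydrases and related genes, 1 fed against 1 fasted library, with 95% exact counting intervals. Circles are TMM-scaled, diamonds use plain CPM, and dotted lines mark 1.5-fold either way. Sgk1 (7.03-fold higher) and Car3 (12.04-fold lower) lie furthest apart, and no channel lies beyond the upper line.

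Markers of the cell types that carry these transporters differed between the same libraries, and their part in the ratios above was not tested. Of all measured genes 17.3% were higher and 17.3% lower, and with plain CPM 8.86% and 31.2%. Of 10 enterocyte markers 5 were higher and 0 lower (with plain CPM 4 higher), none at 0. The summed level was 35748 scaled CPM in the fed library and 73877 in the fasted one. Most of that difference lay in Sis (7625 and 23051), Fabp2 (3740 and 11934) and Apoa4 (1035 and 10917). Vil1 and Fabp1 were higher too. The other 5 were neither: Krt20 (ratio 1.01), Epcam (1.02), Cdh1 (1.11), Anpep (1.15) and Alpi (1.498). Slc26a3, Slc26a2 and Slc9a8 were higher beside the 5 higher markers, while Slc9a3 and Slc9a2 were lower. Of 6 crypt and proliferation markers 4 were lower and 0 higher (1926 and 682 CPM, none at 0), beside the lower Cftr, Kcne3 and Kcnn4, while Slc12a2, the chloride loader of secretion, had a ratio of 1.37, Kcnq1 0.921 and Clcn2 0.924. Smooth muscle markers had 6 of 8 lower and 0 higher (4765 and 2533 CPM, none at 0), beside the lower Slc24a3, while Slc8a1, also known from smooth muscle, had a ratio of 1.19. Neuron markers had 6 of 9 higher and 0 lower (79.3 and 127 CPM, none at 0; with plain CPM 2 higher), whereas the neuronal Slc8a2 was lower. Of 5 glial markers 2 were measured and neither was called (64.5 and 81.1 CPM for the list, Gfap at 0 in the fasted library). Goblet cell markers had 3 of 6 lower and 0 higher (49991 and 39021.5 CPM), and leukocyte markers 4 of 7 lower and 0 higher (1197 and 674). With plain CPM 5 crypt, 7 smooth muscle, 3 goblet cell and 6 leukocyte markers were lower and 0 higher. Fibroblast markers had 4 of 6 lower and 2 higher (4351 and 1665 CPM), with plain CPM 4 lower and 0 higher. Endothelial markers had 2 of 5 higher and 0 lower (229.7 and 345 CPM), and erythroid markers 2 of 3 measured higher (10.5 and 23.9). With plain CPM 1 endothelial and 1 erythroid marker were higher. Striated muscle markers had 2 of 3 measured higher and 1 lower (34.3 and 73.3 CPM). Their log2 ratios, with 0.5 counts added, ran from -2.11 to 8.13, far wider than the sums show. Myot was at 0 in the fed and Tnnt3 and Atp2a1 at 0 in the fasted library. Pancreatic acinar markers had 14 and 17 counts in sum, with Prss2 at 0 in both.

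**Figure D5:**
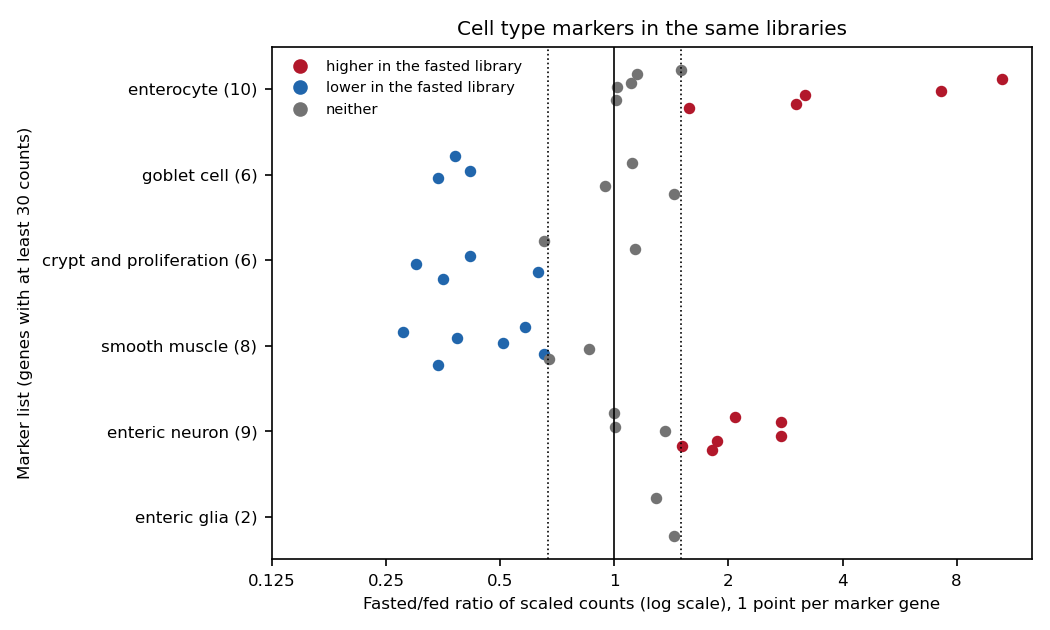
Fasted/fed ratio of scaled counts (log axis) of single marker genes for 6 cell types, 1 point per gene with at least 30 counts, coloured by whether the gene was higher, lower or neither, with dotted lines at 1.5-fold either way. The 6 lower smooth muscle markers and 4 lower crypt markers lie left of the line, and 5 enterocyte and 6 neuron markers lie right of it.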

How the data were processed

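Footprint libraries from 1 fed and 1 fasted group were analysed. The authors deposited raw read counts per gene symbol. Tools named per the submitters' processing notes are HTSeq, STAR, cutadapt and Bowtie 1.1.2, with mm10 as build; which step each served is unstated. Annotation, strand setting and length filter are unstated too, so reads of overlapping or antisense genes cannot be told apart. Entries given as NA were read as 0. Lines naming no gene stayed out of totals, which left 45.0% of the fed and 38.9% of the fasted reads counted. Reads listed as having no feature made up 13.4% of the fed and 21.0% of the fasted library. The part of this difference in the ratios was not tested. Another 41.4% and 39.9% were listed as not unique, which bears on genes with close copies. Of the coding 28-base words of Atp1b3 48.7% are absent from the transcripts of other genes, so its values are uncertain.

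Libraries were scaled with TMM (edgeR 4.0.16, R 4.3.3) over all genes. With 1 library a group no test between conditions was run and no p-value is given. Ratio intervals are 95% Clopper-Pearson intervals on the split of a gene's counts, intervals of ratios of 2 genes are exact conditional odds ratio intervals (scipy 1.17.1), and levels and shares have exact Poisson and Clopper-Pearson intervals. All treat reads as independent molecules, although the libraries were amplified by PCR. Medians use log2 ratios with 0.5 counts added. The counting functions were tested on simulated counts. Symbols of all 54 transporters matched GENCODE vM21 (GRCm38, the assembly of mm10), which gave coordinates (1-based) and coding lengths. Every measured transporter was to be named, of which 6 are counted in all totals but not reported here, as was every partner gene called and up to 3 others a group. The transporters, partner genes and marker lists were chosen with earlier results of these data known, and the ileal markers after the files were read. Alternatives were plain CPM, DESeq2 1.42.0 size factors, upper-quartile factors, TMM without abundant genes, other count minimums, a 2-fold threshold, a stricter interval and 2 added counts.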

Additional observations from a re-analysis of the deposited data

How the results depend on the processing

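No paired analysis was possible because each condition has 1 library. Median-ratio size factors and TMM without abundant, ribosomal protein and mitochondrially encoded genes changed no call of a measured transporter, and upper-quartile factors changed 1. Plain CPM changed 7 calls: 4 higher calls were lost and 3 lower calls gained, leaving 2 higher transporters in place of 6. With it 8 uncalled transporters turned direction, and none of the called ones did. A 2-fold threshold left 2 higher and 2 lower transporters in place of 6 and 7. For partner genes plain CPM gave 10 higher and 12 lower in place of 16 and 7, with a median log2 ratio of -0.14 in place of 0.18. A minimum of 200 counts gave 10 and 4, since fewer genes were measured, and a 2-fold threshold 7 and 3. The share of all genes called with the 200-count minimum or the 2-fold threshold is not given, so these counts show only how calls moved. Depth limits the rarest transporters: the intervals of the uncalled Slc4a8 and Slc9a7 span more than 3-fold, so a 1.5-fold difference in these was not detectable.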
